A study of Mus musculus with 9 samples.

Results

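The genes of MHC class II antigen presentation were examined across the cell classes of femoral bone marrow in 3 mouse strains. The 10 genes were chosen by symbol, out of 31053 genes in the matrix: *H2-Aa*, *H2-Ab1*, *H2-Eb1*, *Cd74*, *H2-DMa*, *H2-DMb1*, *H2-DMb2*, *H2-Oa*, *H2-Ob*, and *Ciita*. All 10 were present. Single cell RNA sequencing of transcript 3′ ends was available for 9 female mice at 9 to 10 weeks of age, with 1 library per mouse. The groups were NZB (n = 3), NZW (n = 3), and their hybrid NZBWF1 (n = 3), which is studied as a model of systemic lupus erythematosus. The labels name no transgene and no treatment. Each mouse contributed 8106539 to 18663189 unique molecular identifiers (UMIs, counted once per captured transcript) in the cells analyzed.

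MHC class II molecules are dimers that carry peptides from endosomes to the cell surface, where CD4+ T-cells read them. The invariant chain, encoded by *Cd74*, fills the groove of a new dimer until proteases trim it, the H2-DM dimer then exchanges the remaining fragment for peptide, and the H2-DO dimer restrains H2-DM. CIITA, the product of *Ciita*, is recruited to a set of conserved promoter boxes and switches the family on together, chiefly in B-cells, dendritic cells, and macrophages.

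Cells were assigned to 17 classes by marker genes that include no MHC class II gene, and classes are therefore written with the ending "-like". Levels are given in CPM, the UMIs of a gene summed per mouse and class and scaled to a common total, as mean ± SD over mice with at least 10 cells of the class. One transcript gives 1 UMI whatever its length, so values were not divided by length. Tests that set one gene against another used only ratios or percents followed across classes. Levels of several genes named together in a class are a description. Of 39051 cells, 3106 (7.95%) passed the markers of classes that no rule joined and were left out, and 45.8% of these scored as doublets. Cells with a listed pair were kept in 1 class. Macrophage with neutrophil or classical monocyte markers gave macrophage-like, and classical monocyte with conventional dendritic cell markers gave cDC-like cells. Precursor with classical monocyte markers stayed with the granulocyte-monocyte precursors, and classical with nonclassical markers gave nonclassical monocyte-like cells. Of 38879 barcode sequences among the cells kept, 170 occurred in 2 or more libraries. Several classes matched their names less well, the macrophage-like and cDC-like classes among them. In macrophage-like cells (n = 329), the summed neutrophil markers reached 216432 to 362243 CPM, against 2858 to 11177 CPM for the 11 macrophage markers. Only 22.4% of the 246 conventional dendritic cell (cDC)-like cells kept their class when cells were thinned to 1000 UMIs, and their classical monocyte markers summed to 2576 to 3933 CPM, above the 1288 to 2542 CPM of their own 14 cDC markers. When classes were taken from clusters, 0% of these cells lay in a cluster of that name, and "cDC-like" stands for the gate only. Of stem or progenitor-like cells, 18.6% kept their class when thinned. Their 6 granulocyte-monocyte precursor markers summed to 1169 to 2914 CPM, beside 1192 to 1903 CPM of their own 8 markers. In small pre-B-like cells, the 3 pro-B stage markers summed to 159 to 683 CPM, beside 93.3 to 525 CPM of the 3 small pre-B stage markers. The part of other cells' RNA in the values of these classes was not tested.

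Of the 10 genes, 8 lie in one stretch of chromosome 17, from *H2-Oa* (chr17:34092340-34095234) to *H2-Eb1* (chr17:34305867-34316674), in the mm10 build with the GENCODE vM21 annotation. *Ciita* lies at chr16:10480059-10528418. The strains carry different haplotypes of the chromosome 17 region, whereas the reads were counted against a C57BL/6 genome. Whether alleles of the 3 strains were counted with equal yield was not tested. The promoter sequences of RefSeq (assembly GRCm38.p6) held an entry for 7 of the 10 genes. They are shown because the letters GATTGG, the core of the Y box bound by NF-Y, stood within the last 100 bases before the start in 6 of these 7. *H2-DMa* had it only farther upstream. Over all 27025 genes with an entry, GATTGG (searched on both strands) was found in the last 100 bases of 10% and in the whole 250 bases of 16.6%. The capitals mark GATTGG, each window holds 70 bases and is written 5′ to 3′ on the strand of the gene, and a match is a description of letters, not of binding.
H2-Aa: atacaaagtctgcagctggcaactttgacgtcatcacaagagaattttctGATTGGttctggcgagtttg
H2-Eb1: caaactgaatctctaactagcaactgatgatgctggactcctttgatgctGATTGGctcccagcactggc
H2-DMb1: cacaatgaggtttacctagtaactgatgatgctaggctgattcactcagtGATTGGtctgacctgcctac
H2-DMb2: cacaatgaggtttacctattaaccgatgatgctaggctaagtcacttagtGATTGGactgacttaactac
H2-Oa: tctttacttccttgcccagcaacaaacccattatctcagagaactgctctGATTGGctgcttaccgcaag
H2-Ob: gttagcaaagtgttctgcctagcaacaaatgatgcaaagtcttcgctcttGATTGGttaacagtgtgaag

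The motif began 49 bases before the start of *H2-Aa* (minus strand, chr17:34287853-34287922), 60 before that of *H2-Eb1* (plus strand, chr17:34305757-34305826), and 62 before that of *H2-DMb1* (plus strand, chr17:34153079-34153148). It began 91 bases before the start of *H2-DMb2* (plus strand, chr17:34145108-34145177), 44 before that of *H2-Oa* (plus strand, chr17:34092285-34092354), and 58 before that of *H2-Ob* (plus strand, chr17:34238797-34238866). These starts are those of RefSeq. GENCODE vM21 begins *H2-DMb2* at chr17:34143307 and *H2-DMb1* at chr17:34153072, so that both windows lie inside the genes as annotated there. The window of *H2-Oa* reaches past its GENCODE start at chr17:34092340. *H2-DMb1* and *H2-DMb2* are neighboring copies of the gene for the beta chain of H2-DM. Their longest protein-coding transcripts hold 1404 and 1483 bases, and 94.6% of 1219 aligned bases were identical. In the last 400 bases, where reads of this assay fall, 0 of 310 windows of 91 bases of either gene occurred unchanged in the other, so that reads of that length could be told apart there. In the strains themselves this was not tested.

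First, the level of each gene was compared amongst cell classes. The genes of the dimers were highest in mature B-like, cDC-like, and plasmacytoid dendritic cell (pDC)-like cells. *H2-Aa*, the alpha chain of H2-A, reached 2789 ± 1708 CPM in cDC-like cells (n = 8 mice), 2203 ± 550 in mature B-like cells (n = 9), and 1366 ± 483 in pDC-like cells (n = 9). The first 2 of these neighbors in the order did not pass the test (exact sign-flip permutation within mice, adjusted p = 0.975, higher in 4 of 8 mice). The last 2 did not pass it after adjustment (exact permutation, adjusted p = 0.0833, unadjusted p = 0.0117, higher in 8 of 9 mice). With gates on thinned cells, which left 3 mice with enough cDC-like cells, their 3 dimer genes summed to 16030 CPM in place of 6439 CPM, and those of mature B-like cells to 5913 CPM in place of 5585 CPM. *H2-Ab1*, its beta chain, followed the same order with 1665 ± 957, 1421 ± 255, and 1009 ± 446 CPM. *H2-Eb1*, the beta chain of H2-E, was at 1985 ± 1575 CPM in cDC-like and 1961 ± 283 CPM in mature B-like cells, a step that did not pass (exact permutation, adjusted p = 0.567). In mature B-like cells it exceeded its level in pDC-like cells (768 ± 247 CPM) in 9 of 9 mice (exact permutation, adjusted p = 0.0312). At the other end, the 3 genes ran between 3.57 and 6.77 CPM in granulocyte-monocyte precursor (GMP)-like and erythroid-like cells. The free RNA of barcodes with fewer than 100 UMIs held more of them, with 126 to 256 CPM of *H2-Aa* over the 9 mice.

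**Figure D1:**
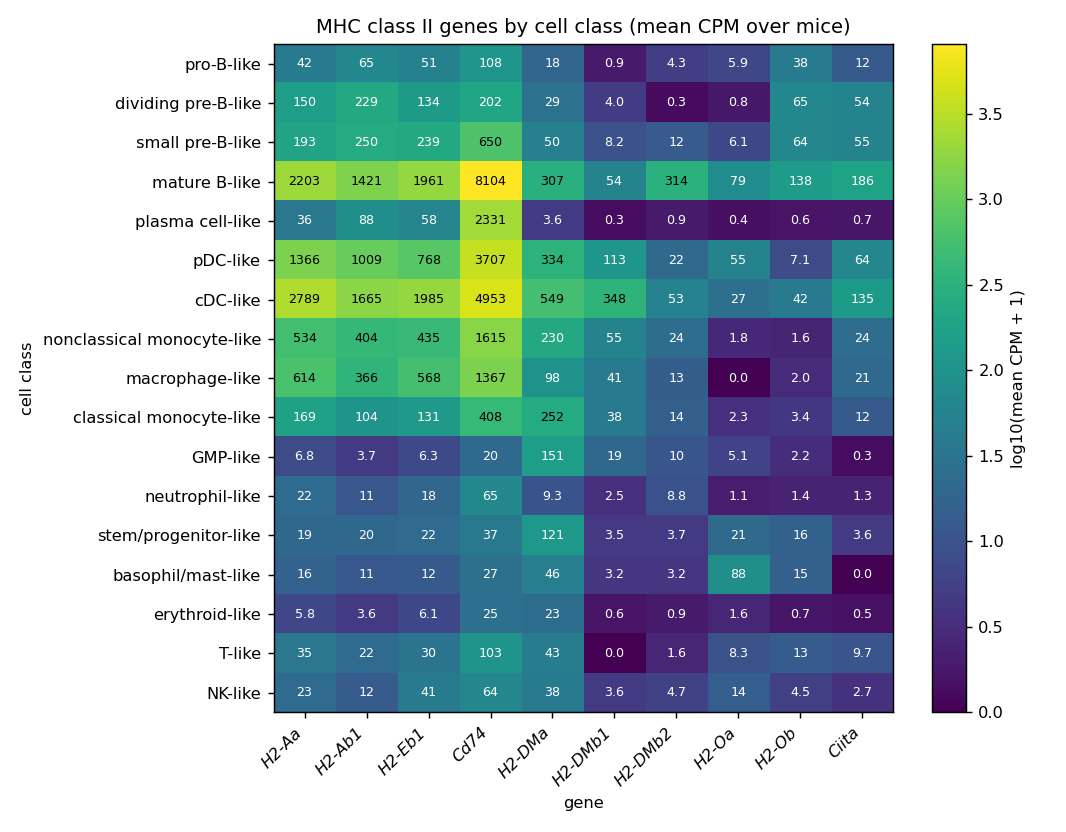
Mean CPM of the 10 genes (columns) in the 17 cell classes (rows), on a log color scale, over the mice with at least 10 cells of a class. *Cd74* reached 8104 CPM in mature B-like cells, and *H2-DMa* stayed at 151 CPM in GMP-like cells, where the 3 dimer genes were below 10 CPM.

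*Ciita*, the transactivator of the family, was highest in mature B-like cells (186 ± 57.5 CPM) and cDC-like cells (135 ± 81.2 CPM), followed by pDC-like (63.6 ± 19.1 CPM), small pre-B-like (55.4 ± 37.3 CPM), and dividing pre-B-like cells (54.4 ± 17.3 CPM). It was at 11.6 ± 6.06 CPM in classical monocyte-like and 0.346 ± 0.494 CPM in GMP-like cells (higher in 9 of 9 mice, exact permutation, adjusted p = 0.0102). *Cd74* had its highest mean in mature B-like cells, at 8104 ± 1593 CPM (6033 to 11520 CPM), ahead of cDC-like (4953 ± 3004 CPM) and pDC-like cells (3707 ± 1124 CPM). Neither step in this order passed the test (exact permutation, adjusted p = 0.208 and 0.625).

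The cDC-like values spread widely. *H2-Aa* was 683 CPM in replicate 1 of NZW and 829 CPM in replicate 1 of NZBWF1. It was 1084 and 2827 CPM in the NZB mice with enough cells, 4789 and 4308 CPM in the other NZW mice, and 3404 and 4387 CPM in the other NZBWF1 mice. These replicate 1 mice of NZW and NZBWF1 were the lowest for *H2-Aa*, *H2-Ab1*, and *Cd74*, but for *H2-Eb1* the lowest was NZB replicate 2 (578 CPM). After thinning to 1000 UMIs, 46.1 ± 14% of cDC-like cells held a UMI of a dimer gene (21.4 to 58.9% over mice), against 83.1 ± 9.42% of mature B-like cells and 2.63 ± 0.779% of neutrophil-like cells.

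Within the B lineage, expression was examined from pro-B-like through small pre-B-like to mature B-like cells. The small pre-B-like class held B-lineage cells without enough dividing or pro-B stage markers and with no mature B stage marker. Cells of other stages with missed markers can therefore lie in it, and their part was not tested. With classes from clusters, 52.5% of it lay in clusters of that class, against 91.4% of pro-B-like and 94.9% of mature B-like cells. *H2-Aa* had a mean of 41.7 ± 21.2 CPM in pro-B-like, 193 ± 86.7 in small pre-B-like, and 2203 ± 550 in mature B-like cells (n = 9 mice). Mature B-like cells exceeded small pre-B-like cells in all 10 genes, by 1.29 (*H2-Ob*) to 5.36 (*H2-DMb2*) on the scale of log2(CPM + 1), with adjusted p between 0.0102 and 0.0426 (exact sign-flip permutation, 60 tests). The increase was seen in 9 of 9 mice for 8 genes, and in 8 of 9 for *H2-Ob* and *Ciita*. Between pro-B-like and small pre-B-like cells, 6 of the 10 genes differed, and all 6 were higher in small pre-B-like cells (exact permutation, each adjusted p = 0.0102, 9 of 9 mice): *H2-Aa*, *H2-Ab1*, *H2-Eb1*, *Cd74*, *H2-DMa*, and *Ciita*. The subunits *H2-DMb1*, *H2-DMb2*, *H2-Oa*, and *H2-Ob* did not pass that exact test (adjusted p = 0.0798, 0.295, 0.615, and 0.189).

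**Figure D2:**
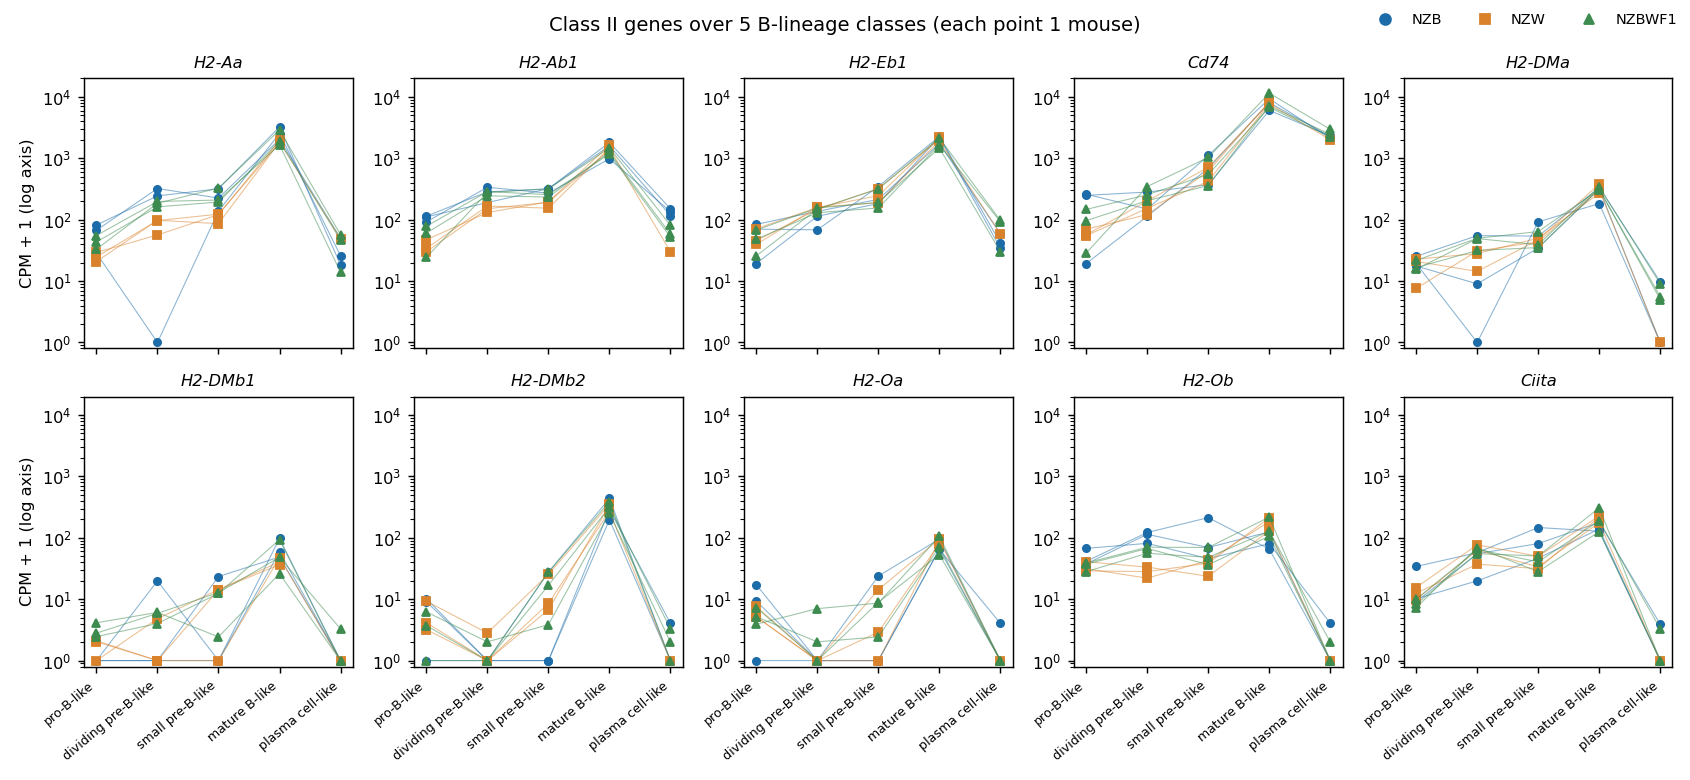
Levels of the 10 genes over 5 classes of the B lineage, as CPM + 1 on a log axis, with 1 point per mouse and lines joining the values of a mouse. From small pre-B-like to mature B-like cells all 10 means were higher, and in plasma cell-like cells *Cd74* stayed at 2331 CPM and *H2-DMa* was at 3.62 CPM.

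Plasma cell-like cells were examined next, in 7 mice. All 10 genes were lower in CPM than in mature B-like cells of the same mice, with log2 differences between -1.78 (*Cd74*) and -7.54 (*H2-DMb2*) (7 of 7 mice, exact permutation, adjusted p = 0.0234 each). CPM is a share of the UMIs of a class. Median depth was 9838 UMIs in plasma cell-like and 1332 in mature B-like cells, and UMIs per cell were not compared. *Ciita* was at 0.743 CPM, *H2-DMa* at 3.62 CPM, *H2-Aa* at 36.3 CPM, and *Cd74* still at 2331 CPM. The UMIs of *Cd74* per UMI of the 3 dimer genes were 13.8 ± 4.8 in plasma cell-like cells, against 1.46 ± 0.168 in mature B-like cells, a log2 difference of 3.21 ± 0.371 (SD). The ratio was higher in 7 of 7 mice (exact permutation, p = 0.0156, the smallest that 7 mice allow; adjusted p = 0.0156 over 6 tests). Dividing pre-B-like cells stood at the other end, with a ratio of 0.394 ± 0.0939, which was lower than in mature B-like cells in 9 of 9 mice (exact permutation, adjusted p = 0.00781). These ratios were compared after the values were seen. Of the 261 plasma cell-like cells, 22.2% kept their class when thinned.

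In the monocyte classes, the level differed with the subset. Nonclassical monocyte-like cells (n = 9 mice) held 534 ± 341 CPM of *H2-Aa* and 1615 ± 763 CPM of *Cd74*, and classical monocyte-like cells 169 ± 108 and 408 ± 255 CPM. The log2 difference was 1.62 for *H2-Aa* (higher in 8 of 9 mice, exact permutation, adjusted p = 0.018) and 2.10 for *Cd74* (9 of 9, 0.0102). *H2-Ob* had 1 UMI in all nonclassical monocyte-like cells, which is too few for a comparison. *Ciita* (23.8 and 11.6 CPM, exact permutation, adjusted p = 0.969) and *H2-DMa* (230 ± 70.5 and 252 ± 31.9 CPM, adjusted p = 0.32) did not pass the test. Against GMP-like cells, classical monocyte-like cells were higher by 4.49 for *H2-Aa* and 4.44 for *Cd74*, but by only 0.74 for *H2-DMa* (9 of 9 mice and exact permutation adjusted p = 0.0102 for each). These are differences in CPM, at a median depth of 4914 UMIs in GMP-like and 2102 in classical monocyte-like cells, and UMIs per cell were not compared. *H2-DMa*, the alpha chain of H2-DM, was expressed at 151 ± 22 CPM in GMP-like and 121 ± 30.5 CPM in stem or progenitor-like cells, in which *H2-Aa* was at 6.77 and 19.3 CPM. In GMP-like cells, replicate 1 of each strain was the lowest of its strain for *H2-Aa*, *H2-Ab1*, *H2-Eb1*, and *Cd74*, the last with 3.1, 3.08, and 4.28 CPM against 18.2 to 43 CPM in the other mice. *Cd74* in nonclassical monocyte-like cells was also lowest in replicate 1 of each strain (654, 1164, and 770 CPM). With classes from clusters, the 3 dimer genes of nonclassical monocytes summed to 5608 CPM in place of 1373 CPM. Of 958 cells with at least 2 nonclassical markers, 671 were at this minimum. The gate also required a classical monocyte marker, and the class held 349 cells. After thinning, 18.7 ± 12.4% of the class held a dimer UMI, and its B-lineage markers summed to 17.9 to 594 CPM, against 25 to 117 CPM in classical monocyte-like cells. Its 6 classical monocyte markers summed to 2488 to 5483 CPM, beside 1704 to 4680 CPM of its own 6 markers, and its neutrophil markers to 627 to 8743 CPM. The part of these cells and markers in the difference was not tested.

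Both copies of the H2-DM beta chain differed amongst classes in their proportion. The percent of *H2-DMb1* and *H2-DMb2* UMIs that belonged to *H2-DMb2* was 85.4 ± 4.77 in mature B-like cells (n = 9 mice), ranging from 77.1 to 90.9. It was 13.6 ± 11 in pDC-like cells (0 to 28.1), 12.3 ± 7.58 in cDC-like cells (3.12 to 22, n = 6), and 27.2 ± 6.29 in classical monocyte-like cells (17.7 to 38.7). The range of mature B-like cells overlapped with none of these 3. The difference was 71.9 ± 14.1 percentage points to pDC-like cells (9 of 9 mice, exact permutation, adjusted p = 0.00521 over 4 tests), 58.2 ± 9.18 to classical monocyte-like cells (9 of 9, 0.00521), and 74.6 ± 7.99 to cDC-like cells (6 of 6, 0.0312). Neutrophil-like cells, in which both genes were low (2.47 and 8.82 CPM), had a percent of 78.7 ± 8.34.

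**Figure D3:**
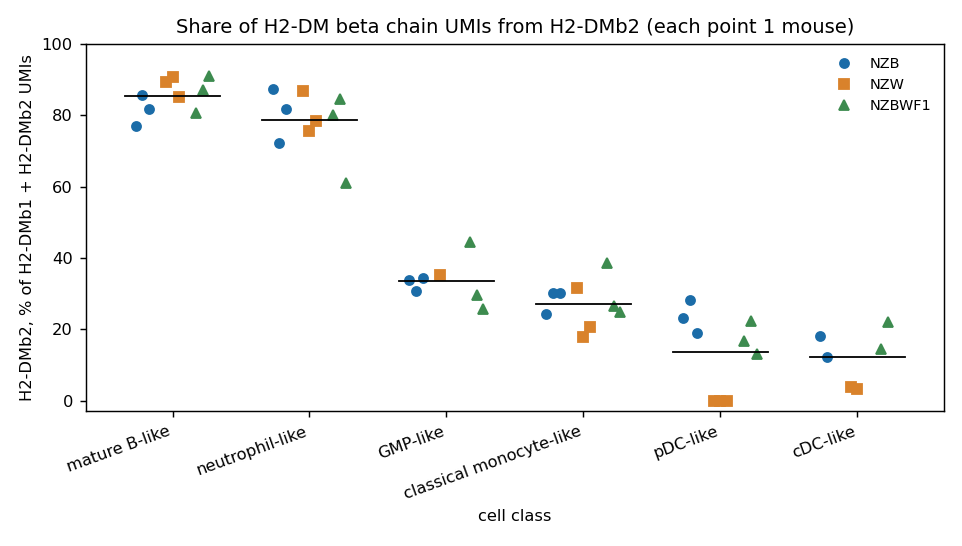
*H2-DMb2* as a percent of the UMIs of *H2-DMb1* and *H2-DMb2*, by cell class and strain, with 1 point per mouse with at least 10 such UMIs and a line at the mean over mice. Mature B-like mice lie between 77.1% and 90.9%, and the 3 NZW mice lie at 0% in pDC-like cells.

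The chains of H2-DO, the inhibitor of H2-DM, were also not expressed in a fixed proportion. *H2-Ob* made up 98.9 ± 2.66% of *H2-Oa* and *H2-Ob* UMIs in dividing pre-B-like cells (n = 9 mice), 85.7 ± 6.25% in pro-B-like cells (n = 8), 62 ± 6.97% in mature B-like cells (n = 9), and 10.9 ± 8.34% in pDC-like cells (n = 8). As compared to mature B-like cells, the percent was 36.9 ± 8.21 points higher in dividing pre-B-like cells (9 of 9 mice, exact permutation, adjusted p = 0.00781) and differed by -50.1 ± 10.8 points in pDC-like cells (lower in 8 of 8, 0.00937). Basophil or mast cell-like cells contained 88.1 ± 50.8 CPM of *H2-Oa*, beside 79.4 CPM in mature B-like cells, from 34 UMIs in 8 mice, while *Ciita* was at 0 UMIs there and *H2-Aa* was at 0 in 7 of the 8 mice.

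Next, it was examined whether the genes differed between strains. In each class, a quasi-likelihood model of edgeR was fitted to the summed UMIs of all genes, and p-values were corrected within the class (Benjamini-Hochberg, threshold 0.05). Of 170 possible tests of a gene in a class, 90 passed the filter on low counts; the others are described by their levels only. NZB differed from NZW in 15 of the 90 tests (16.7%), 12 of them higher in NZB, against 7.22% of all genes tested over the 17 classes. NZBWF1 differed from NZW in 8 (8.89%; background 0.956%), all higher in NZBWF1, and from NZB in 3 (3.33%; background 3.07%), 2 of them higher. Against the mean of the parents, NZBWF1 differed in 3 of 90 (3.33%; background 0.629%), all higher in NZBWF1. These comparisons share mice and are not independent. Background percents here and below are those of edgeR at this threshold, without a replicate block. No such percent is given for DESeq2, other settings, or unadjusted p-values. For *H2-DMa*, the smallest edgeR adjusted p over 13 classes and 4 comparisons was 0.0652.

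pDC-like cells held the most differences. NZB was higher than NZW in 5 of 9 genes tested, against 6.69% of all genes in this class. *Cd74* was 4388, 4731, and 4268 CPM in NZB, 2141, 2845, and 1916 CPM in NZW, and 4735, 3735, and 4609 CPM in NZBWF1. All NZW mice were below all others, with a log2 difference of NZB and NZW of 0.99 ± 0.109 (SE, edgeR adjusted p = 5.12e-08). *H2-Ab1* was 1517, 1384, and 1249 CPM in NZB, 466, 625, and 366 CPM in NZW, and 810, 1211, and 1454 CPM in NZBWF1. Its groups did not overlap between the parents either, and it differed by 1.53 ± 0.265 (edgeR adjusted p = 0.0124, and 0.0804 without NZW replicate 1). *H2-Aa* differed by 1.09 ± 0.201 (means 1620 and 773 CPM, edgeR adjusted p = 0.00763) and *H2-Eb1* by 0.89 ± 0.154 (870 and 476 CPM, adjusted p = 0.000166).

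*H2-DMb2* was not detected in NZW pDC-like cells at this depth. It was at 35.4, 49.5, and 25 CPM in NZB, 25.1, 33.6, and 24.6 CPM in NZBWF1, and 0 in each NZW mouse. The NZW cells held 0 of 490070 UMIs, for which a floor of 3 UMIs over the strain is 6.12 CPM, so that NZB (64 UMIs) was at least 6.24-fold higher and NZBWF1 (32 UMIs) at least 4.56-fold higher (edgeR adjusted p = 2.6e-05 and 0.00161). The NZW mice did express the gene in mature B-like cells, with 401 UMIs (319 ± 44 CPM). The percent of *H2-DMb2* amongst both beta chain copies differed between strains in pDC-like cells (exact permutation, p = 0.00714, adjusted p = 0.0214 over 3 classes), but this was not seen in mature B-like (adjusted p = 0.316) or classical monocyte-like cells (0.489). In cDC-like cells, with 2 mice per strain, the strains were not tested. The percent there was 3.12 and 3.92 in NZW, 12.1 and 18.2 in NZB, and 14.5 and 22 in NZBWF1. The level of *H2-DMb2* in NZW pDC-like cells depends on how the class is drawn: with classes from clusters, the fitted log2 difference of NZB and NZW was 1.39 (edgeR adjusted p = 0.00877), and that of NZBWF1 and NZW was 1.02 (adjusted p = 0.294). With gates on cells thinned to 1000 UMIs, these were 2.46 (0.0162) and 1.96 (0.283).

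**Figure D4:**
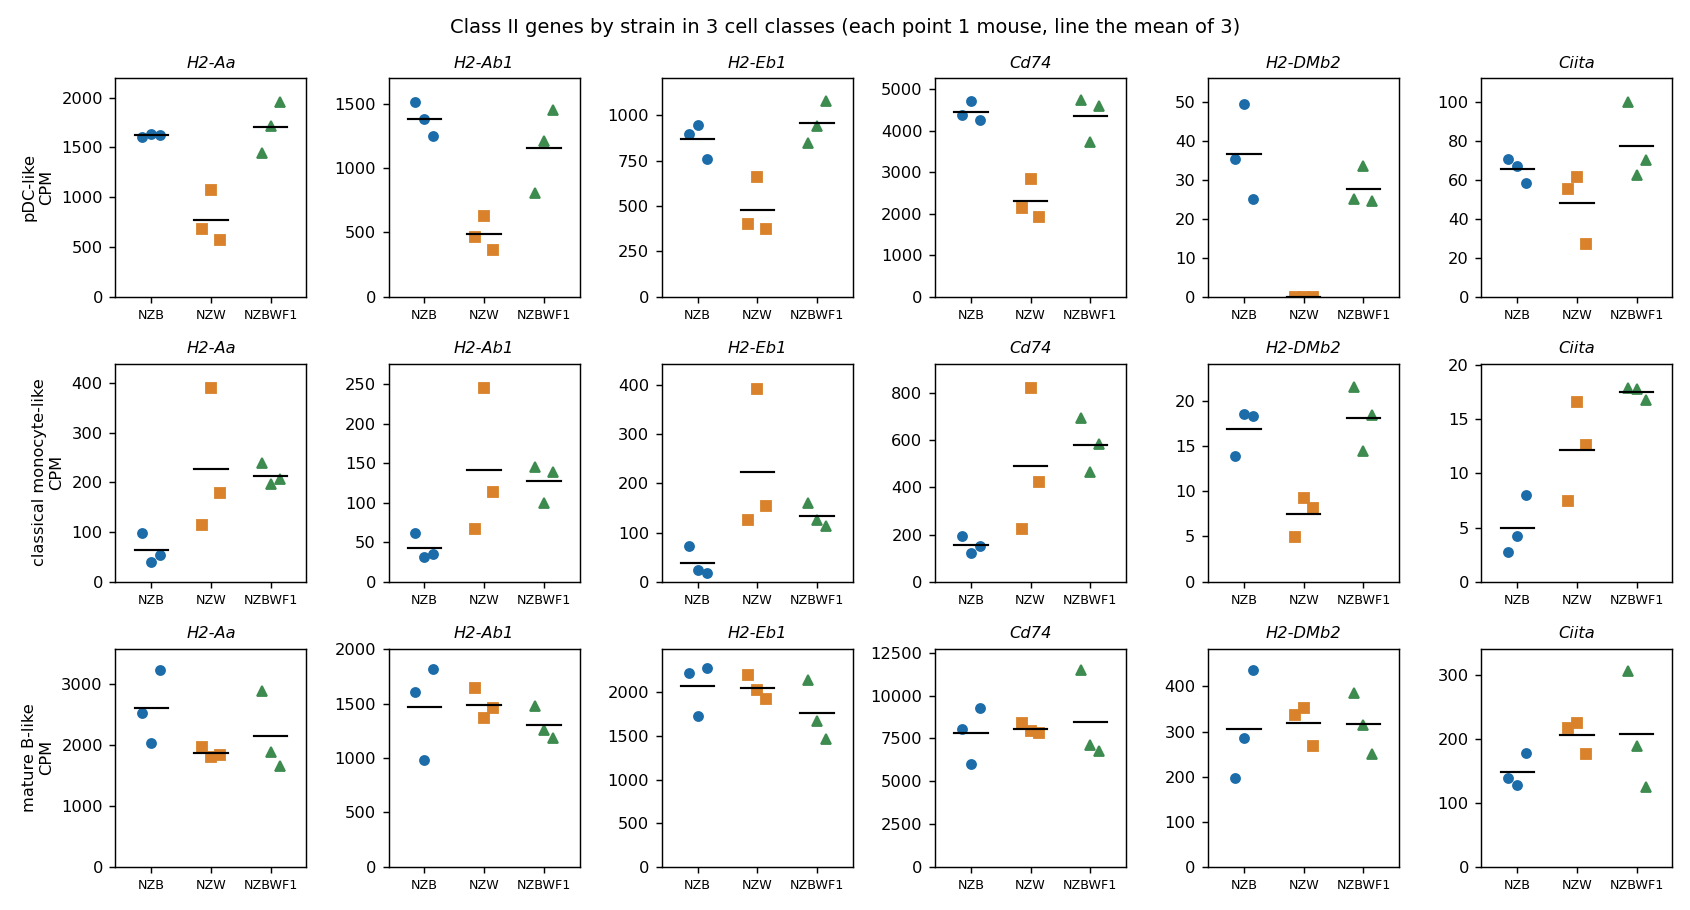
Levels of 6 genes in pDC-like, classical monocyte-like, and mature B-like cells, as CPM on axes that start at 0 and differ between panels, with 1 point per mouse and a line at the mean of each strain. In pDC-like cells the 3 NZW mice lie below the NZB mice for *H2-Aa*, *H2-Ab1*, *H2-Eb1*, *Cd74*, and *H2-DMb2*. In mature B-like cells the strains overlap for *Cd74* and *H2-DMb2*, but for *H2-Aa* the NZW mice (1794 to 1965 CPM) lie below the NZB mice (2032 to 3234 CPM).

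NZBWF1 was higher than NZW in 4 of 9 genes (background 1.93%): *H2-DMb2*, *H2-Aa* (1.16 ± 0.203, edgeR adjusted p = 0.0169), *H2-Eb1* (1.02 ± 0.157, 8.44e-05), and *Cd74* (0.93 ± 0.11, 8.06e-07). DESeq2 called 5, with *H2-Ab1* added (edgeR 1.30 ± 0.269, adjusted p = 0.081). NZBWF1 differed from NZB in 0 of 9 genes (background 2.48%) by edgeR and by DESeq2, also at an unadjusted edgeR p under 0.05. Against the mean of the parents, DESeq2 called *H2-Aa*, *H2-Eb1*, and *Cd74*. For *H2-Aa* the edgeR adjusted p was 0.299, and 0.0157 with the replicate number as a block. By edgeR, *H2-Eb1* was higher by 0.58 ± 0.123 (adjusted p = 0.0149) and *Cd74* by 0.43 ± 0.0907 (0.012), against 0.487% of all genes. Without NZW replicate 1, the adjusted p of these 2 was 0.07 and 0.0607. Leaving out NZBWF1 replicate 2 or 3 gave 0.121 or 0.168 for *H2-Eb1*, and leaving out NZB replicate 3 or NZBWF1 replicate 1 or 3 gave 0.0568, 0.737, or 0.233 for *Cd74*. With classes from clusters these were 0.65 and 0.131, and with cells of at least 2000 UMIs 0.117 and 0.81. For *H2-Aa* against NZW it was 0.0809 without NZW replicate 1 and 0.0581 or 0.0616 without NZBWF1 replicate 1 or 2, and for *Cd74* 0.117 without NZBWF1 replicate 1.

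In cells thinned to 1000 UMIs, 80.3 ± 2.14% of NZB, 54.2 ± 6.47% of NZW, and 72.1 ± 6.74% of NZBWF1 pDC-like cells held a UMI of *Cd74* (exact permutation over strains, p = 0.00357, the smallest that 9 mice allow; adjusted p = 0.0476 over 40 tests). In neutrophil-like cells, which serve as background, NZB had a share of 2.24%, NZW of 2.37%, and NZBWF1 of 3.06%, at a median depth before thinning of 2393 UMIs as compared to 1655 in pDC-like cells. A UMI of a dimer gene was found in 76.8 ± 3.59%, 44.3 ± 4.35%, and 68.3 ± 7.35% of pDC-like cells (exact permutation, adjusted p = 0.0571).

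Other measures moved with the pDC-like class. The 7 pDC markers summed to 8581 to 8822 CPM in NZB, 4109 to 4512 in NZW, and 5889 to 6098 in NZBWF1, with no marker at 0, and the 6 genes of dividing cells to 255 to 464, 887 to 1259, and 308 to 576 CPM. NZB contributed 260, 507, and 270 cells, NZW 74, 106, and 74, and NZBWF1 65, 256, and 301. The part of these differences in the values above was not tested. With cells of at least 2000 UMIs and 1000 genes, the adjusted p of NZB against NZW was 0.233 for *H2-Aa*, 0.471 for *H2-Ab1*, 0.493 for *H2-Eb1*, and 0.736 for *Cd74*. That of NZBWF1 against NZW was 0.114 for *H2-Aa*, 0.0596 for *H2-Eb1*, and 0.572 for *Cd74*.

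In classical monocyte-like cells, *Ciita* was 2.78, 4.18, and 8.02 CPM in NZB, 7.41, 16.6, and 12.6 CPM in NZW, and 17.9, 17.8, and 16.8 CPM in NZBWF1. The NZBWF1 mice were above all others, although by a small margin to NZW replicate 2, and NZBWF1 and NZW did not differ beyond the threshold (0.46 ± 0.303, edgeR adjusted p = 0.719). The log2 difference of NZBWF1 and NZB was 1.78 ± 0.394 (edgeR adjusted p = 0.00157, background 15.3%), and it passed under all 19 alternatives in which it was tested, of 20 tried. Of the other 7 genes in this comparison, 0 passed by edgeR, whereas 5 had an unadjusted p under 0.05, and DESeq2 called *H2-Ab1*, *H2-Aa*, and *Cd74* (fitted by edgeR at 1.61 ± 0.615, 1.80 ± 0.582, and 1.91 ± 0.515, adjusted p = 0.15, 0.0967, and 0.056). That of NZB and NZW was -1.32 ± 0.404 (edgeR adjusted p = 0.0153), which became 0.132 without NZB replicate 2, 0.107 without NZW replicate 2, 0.0879 with DESeq2, and 0.0535 with gates on thinned cells. Against the mean of the parents it was 1.12 ± 0.299 (edgeR adjusted p = 0.0311; background 2.5%). The last result did not pass in 6 of 9 fits that left out a mouse, which were those without NZB replicate 2, NZW replicate 1 or 3, or any NZBWF1 mouse (edgeR adjusted p = 0.127, 0.0678, 0.0555, 0.0624, 0.226, and 0.118). It was also lost with DESeq2 (0.202), classes from clusters (0.159), gates on thinned cells (0.22), at most 5% mitochondrial UMIs (0.0651), and scored doublets removed (0.0805).

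Between NZB and NZW, 3 of 8 genes tested passed in this class, where 22.5% of all genes did. Besides *Ciita*, *H2-Eb1* was lower in NZB (72.2, 23.9, and 17.2 CPM) than in NZW (125, 392, and 154 CPM), by a log2 difference of -2.73 ± 0.678 (edgeR adjusted p = 0.0324). The result was lost without NZB replicate 2 (0.153), NZB replicate 3 (0.103), or NZBWF1 replicate 1, 2, or 3 (0.0538, 0.0568, and 0.0552). It was also lost with the replicate number as a block (0.0677), with clusters (0.0591), with no filter on low counts (0.0543), and at 2000 UMIs (0.479). *H2-DMb2* was higher in NZB (13.9, 18.5, and 18.3 CPM) than in NZW (4.94, 9.28, and 8.19 CPM), by 1.18 ± 0.32 (edgeR adjusted p = 0.006), and without NZB replicate 2 its adjusted p was 0.0632. *H2-Aa*, *H2-Ab1*, and *Cd74* had log2 differences of -1.95, -1.83, and -1.71 that did not pass (edgeR adjusted p = 0.054, 0.0732, and 0.059), although DESeq2 called all 3.

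Few classical monocyte-like cells held a UMI of these genes. After thinning, *Cd74* was found in 4.34 ± 0.937% of NZB, 8.16 ± 2.22% of NZW, and 11.8 ± 0.973% of NZBWF1 cells (exact permutation, adjusted p = 0.0476), and *Ciita* in 0.567, 1.2, and 2.04% (0.0476). The *Cd74* result was lost at 2000 UMIs and without thinning (exact permutation, adjusted p = 0.149 and 0.0714). A dimer gene was found in 2.66, 4.99, and 7% of cells (adjusted p = 0.163) and *H2-DMa* in 18.9, 21, and 23.9% (adjusted p = 0.0952), and neither passed the exact test. Neutrophil-like cells had 2.24, 2.37, and 3.06% for *Cd74* and 0.0657, 0.225, and 0.153% for *Ciita*. Median depth before thinning was 2102 UMIs in classical monocyte-like and 2393 in neutrophil-like cells. Markers of other cells and stages moved with the strains: the 7 B-lineage markers summed to 25 to 37.6 CPM in NZB, 72.4 to 117 in NZW, and 59.1 to 81.1 in NZBWF1, and the 11 macrophage markers to 69.9 to 111, 109 to 132, and 156 to 189 CPM. The 6 nonclassical monocyte markers summed to 102 to 130, 192 to 232, and 161 to 172 CPM, the 6 GMP markers to 1327 to 2123, 1030 to 1432, and 814 to 1242 CPM, and the 6 genes of dividing cells to 1960 to 2958, 1654 to 1823, and 1449 to 1571 CPM. Their part in the result was not tested.

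The difference of NZB and NZW was then compared between classes in 1 fit, for class pairs chosen after the values were seen. Between pDC-like and classical monocyte-like cells it differed for 6 of 9 genes (background 7.06%). For *H2-Eb1*, the difference was 3.65 ± 0.504 larger in pDC-like cells on the log2 scale (edgeR adjusted p = 0.00683), and for *H2-Ab1*, *H2-Aa*, *Cd74*, and *Ciita* it was larger by 3.35, 3.03, 2.65, and 1.81 (adjusted p = 0.00674, 0.0071, 0.0104, and 0.0133). *H2-DMb2* passed as well (0.0116), and between pDC-like and mature B-like cells it was the only one of 10 genes to pass (5.08e-05; background 2.4%). Between pDC-like and cDC-like cells, 0 of 10 genes passed (background 1.4%), while 4 had an unadjusted p under 0.05 with edgeR, the only tool used there.

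Mature B-like cells, the class with the highest *Cd74*, were tested for all 10 genes, and 0 passed between NZB and NZW (edgeR; background 3.47%). By DESeq2, 1 passed (*H2-Aa*), and 3 had an unadjusted p under 0.05 by edgeR (*H2-DMb1*, *H2-Ob*, and *H2-Aa*). *Cd74* was 8059, 6033, and 9299 CPM in NZB, 8387, 7944, and 7787 CPM in NZW, and 11520, 7130, and 6780 CPM in NZBWF1. The strains overlapped, and the log2 difference of NZB and NZW was 0.08 ± 0.234. For *H2-Aa* it was 0.61 ± 0.195 (edgeR adjusted p = 0.118). NZBWF1 did not pass against NZB, NZW, or their mean in any of the 10 genes by edgeR (background 3.84%, 0.49%, and 2%) or DESeq2. At an unadjusted edgeR p under 0.05, for which no share of all genes is given, 3, 1, and 2 genes passed in these comparisons. In this class, the 7 B-lineage markers summed to 5509 to 6855 CPM in NZB, 8949 to 10252 in NZW, and 8869 to 11585 in NZBWF1, the 4 mature B stage markers to 2699 to 3710, 4114 to 4306, and 3604 to 4850, and the 12 neutrophil markers to 632 to 1919, 2182 to 6634, and 2304 to 5448. In cDC-like cells, 0 of 7 genes tested passed between NZB and NZW (background 3.71%), with 1 unadjusted p under 0.05 (*Ciita*, edgeR) and none by DESeq2. With the replicate number as a block, 5 of the 7 were lower in NZB (*H2-Aa*, *H2-Ab1*, *H2-Eb1*, *Cd74*, and *Ciita*, edgeR adjusted p = 0.00168, 8.24e-05, 0.00102, 0.000247, and 0.0215). In cDC-like cells, the 14 cDC markers summed to 1456 to 1752 CPM in NZB, 1941 to 2542 in NZW, and 1288 to 2178 in NZBWF1. The 7 pDC markers summed to 560 to 928, 109 to 497, and 189 to 560 CPM, and the 8 plasma cell markers to 271 to 295, 147 to 202, and 187 to 253 CPM. The part of these markers in the cDC-like values was not tested.

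Among B-cell precursors, in dividing pre-B-like cells, *H2-Ob*, the beta chain of H2-DO, was at 113, 80.2, and 121 CPM in NZB, 21, 27.1, and 32.3 CPM in NZW, and 69.3, 65.9, and 55 CPM in NZBWF1. The 3 strains did not overlap, and NZBWF1 lay between its parents. NZB was higher than NZW by 1.85 ± 0.395 (edgeR adjusted p = 0.00198; background 1.34%), from 25 and 39 UMIs, and no single mouse ended this call. With gates on thinned cells its adjusted p was 0.0894, and with cells of at least 2000 UMIs it was 0.296. NZB contributed 20, 66, and 34 cells and NZW 158, 201, and 140, and the 8 stem and early progenitor markers summed to 75.7 to 162 CPM in NZB and 57.1 to 59.6 in NZW, the 3 small pre-B stage markers to 162 to 185 and 89.8 to 159 CPM, and the 9 T-cell markers to 0 to 24.1 and 47.7 to 50.6 CPM. Their part in the result was not tested. NZBWF1 was higher than NZW by 1.15 ± 0.271 (edgeR adjusted p = 0.0144; background 0.582%), and without NZW replicate 1 or 2 or NZBWF1 replicate 2 this was 0.179, 0.101, or 0.0783. With DESeq2, gates on thinned cells, or 2000 UMIs it was 0.0947, 0.49, or 0.244. The difference of NZB and NZW in *H2-Ob* was larger than in mature B-like cells by 2.83 ± 0.521 (edgeR adjusted p = 0.000192; background 0.648%). *H2-Ab1* was higher than NZW in NZB (0.90 ± 0.219, edgeR adjusted p = 0.0119) and in NZBWF1 (0.82 ± 0.149, 0.000241), and the first of these was lost without NZB replicate 2 (0.48) or NZW replicate 1 (0.06), with no filter on low counts (0.0605), with gates on thinned cells (0.246), at 2000 UMIs (0.627), and at 5% mitochondrial UMIs (0.654). The second was lost with gates on thinned cells (0.124) and at 5% mitochondrial UMIs (0.979).

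In pro-B-like cells, NZB was higher than NZW in 2 of 7 genes (background 1.46%), *H2-Ab1* (105 and 36 CPM, 1.53 ± 0.365, edgeR adjusted p = 0.024) and *H2-Aa* (58.3 and 24 CPM, 1.39 ± 0.355, 0.0197). NZB contributed 33, 47, and 75 cells. The *H2-Ab1* result was lost without any NZB mouse or NZW replicate 2 or 3 (edgeR adjusted p = 0.201, 0.163, 0.478, 0.122, and 0.111), and the *H2-Aa* result without NZB replicate 2 or 3 or NZW replicate 3 (0.0896, 0.68, and 0.0727) or at 5% mitochondrial UMIs (0.0577). Both were lost with clusters (0.265 and 0.495) and with gates on thinned cells (0.3 and 0.198), and *H2-Ab1* also after subtraction of free RNA (0.129). In small pre-B-like cells, *H2-Aa* was higher in NZBWF1 (243 CPM) than in NZW (109 CPM), by 1.07 ± 0.229 (edgeR adjusted p = 0.0226; background 0.282%). It was lost without NZW replicate 1 or 3 or NZBWF1 replicate 1 or 3 (0.0511, 0.465, 0.121, and 0.083), with DESeq2 (0.0729), with clusters (0.0892), and at 5% mitochondrial UMIs (0.456). In plasma cell-like cells, *H2-Ab1* was lower in NZBWF1 (62.8 CPM) than in NZB (133 CPM), by a log2 difference of -1.20 ± 0.257 (edgeR adjusted p = 0.00199; background 1.01%). Without NZB replicate 3 it was 0.0801, with DESeq2 0.224, with no filter on low counts 0.0784, and with clusters 0.0734, and NZW had 1 mouse with enough cells in this class.

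GMP-like cells differed in the subunits of H2-DM and H2-DO. *H2-DMb1* was at 36.4, 27.3, and 36.4 CPM in NZB, 2.31, 6.66, and 1.91 CPM in NZW, and 21.4, 20.6, and 21.1 CPM in NZBWF1. The strains did not overlap, and NZBWF1 lay between the parents. NZB was higher than NZW by 2.98 ± 0.312 (edgeR adjusted p = 1.86e-10), and NZBWF1 was higher than NZW by 2.37 ± 0.345 (5.28e-06; background 1.18%). *H2-DMb2* was also higher in NZB than in NZW (16.6 and 3.04 CPM, 2.21 ± 0.379, 2.2e-05). *H2-Oa*, the alpha chain of H2-DO, was lower, with 2.32, 1.95, and 0 CPM in NZB, 8.48, 8.48, and 6.37 CPM in NZW, and 7.13, 6.7, and 4.61 CPM in NZBWF1. Its log2 difference of NZB and NZW was -2.32 ± 0.516 (edgeR adjusted p = 0.00112, from 8 and 35 UMIs). In all, 3 of 8 genes passed between NZB and NZW, where 11.7% of all genes did. Of these, *H2-DMb1* and *H2-Oa* passed in every alternative in which they were tested, and *H2-DMb2* was lost with gates on thinned cells (edgeR adjusted p = 0.0868). The *H2-DMb1* result of NZBWF1 and NZW was lost at 5% mitochondrial UMIs (0.493). *H2-DMa* was at 161 ± 24.4 CPM in NZB and 131 ± 14.4 CPM in NZW and did not pass. Against NZB, *H2-Oa* was higher in NZBWF1 by 1.89 ± 0.553 (edgeR adjusted p = 0.0458; background 2.96%), a result that was lost in 8 of 9 fits that left out a mouse (adjusted p up to 0.302), the exception being the fit without NZB replicate 1, and also with DESeq2 (0.208) and after subtraction of free RNA (0.0618). The B-lineage markers summed to 33.9 to 51.2 CPM in NZB GMP-like cells, 76.4 to 121 in NZW, and 58.5 to 109 in NZBWF1. The 8 plasma cell markers summed to 237 to 315 CPM in NZB and 133 to 175 in NZW, the 6 genes of dividing cells to 1451 to 1638 and 1188 to 1309, the 11 macrophage markers to 57.3 to 69.1 and 84.7 to 107, the 8 stem and early progenitor markers to 94.4 to 128 and 141 to 168, the 8 NK cell markers to 480 to 618 and 351 to 445, the 6 nonclassical monocyte markers to 91.3 to 113 and 117 to 133, and the 7 pDC markers to 33.6 to 41.1 and 27.9 to 32.5. The part of these lists in the results of this class was not tested.

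Lastly, the remaining genes of the pathway were examined: the factors of the promoter boxes, the regulators of *Ciita*, the proteases of the endosome, and genes of surface turnover and costimulation. Of 31 genes listed, 28 were in the matrix, and they gave 229 tests. NZB differed from NZW in 21 of these (9.17%), 11 higher and 10 lower, beside 7.22% of all genes. NZBWF1 differed from NZB in 9 (3.93%), 4 higher and 5 lower, from NZW in 1 (0.437%), which was higher, and from the mean of the parents in 2 (0.873%), both higher, beside 3.07%, 0.956%, and 0.629% of all genes. In classical monocyte-like cells, 4 of 24 listed genes were higher and 3 lower in NZB than in NZW, where 22.5% of all genes differed. In this class *Irf8*, a transcription factor of monocyte and dendritic cell development, was lower in NZB (387 and 665 CPM, -0.78 ± 0.107, edgeR adjusted p = 6.72e-07). *Irf4*, which together with PU.1 acts on *Ciita*, had 2 UMIs in NZB and 70 in NZW, a ratio of 26.5 (95% counting interval 7.07 to 223, exact binomial; edgeR adjusted p = 1.19e-06), and 43 in NZBWF1. *Rfxap*, a subunit of the factor bound to the X box, was higher in NZB (59.2 and 31.3 CPM, 0.89 ± 0.176, 0.000234), as was the protease gene *Ctsd* (248 and 161 CPM, 0.64 ± 0.114, 6.07e-05). *Ctsd* was also higher in NZB neutrophil-like cells (0.64 ± 0.166, edgeR adjusted p = 0.0218, background 8.91%) but lower in NZB erythroid-like cells (183 and 242 CPM, -0.37 ± 0.109, 0.0279, background 8.89%).

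In pDC-like cells, *Ctss* and *Ctsl*, proteases of the endosome that trim the invariant chain, were higher in NZB than in NZW by 0.73 ± 0.136 (818 and 502 CPM, edgeR adjusted p = 0.00011) and 0.43 ± 0.101 (1806 and 1371 CPM, 0.00205, background 6.69%). In erythroid-like cells the direction of *Ctsl* was the opposite, with 39.9 CPM in NZB and 94 CPM in NZW (-1.20 ± 0.167, edgeR adjusted p = 1.53e-05, background 8.89%). In mature B-like cells, *Rfx5*, another subunit of the X box factor, had 0 of 324592 UMIs in NZB, 51 in NZW, and 50 in NZBWF1. This puts NZW at least 4.4-fold and NZBWF1 at least 5.78-fold higher (edgeR adjusted p = 0.014 and 0.00431, background 3.47% and 3.84%). Together with *Irf4* in classical monocyte-like cells, it made up the 2 results against the mean of the parents, and it was named after its values were seen. The part of the B-lineage and neutrophil markers, which were also lower in NZB mature B-like cells, was not tested. *H2-Eb2*, a gene next to *H2-Eb1*, had 3 UMIs in all NZB cells, 17 in NZW, and 12 in NZBWF1. *H2-Ea*, the alpha chain of H2-E, was not analysed here.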

How the data were processed

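Femoral marrow was sequenced from 9 mice, with 1 library per mouse. Per the labels and the study's methods, the authors counted reads on mm10 with Cell Ranger 3.1.0 and joined the libraries with its aggregation step; whether read depth was equalized there is not stated in these sources. The deposited matrix holds raw UMI counts per gene and barcode. Cells with at least 1000 UMIs, 500 genes, and at most 10% mitochondrial UMIs were kept, which left 39051 of 68444 barcodes, with a median of 2182 to 2536 UMIs per mouse. A cell entered a class when enough of its markers exceeded the 99% Poisson point of free RNA at 5% of its UMIs. Many cells lay near a gate: of 2570 cells past the pDC gate, 541 were at the minimum and 438 further cells were 1 marker below it, and for classical monocytes these were 6254, 1897, and 1588. Doublets were scored (0.8% per 1000 cells); scored cells with 1 class were kept.

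Counts were summed per mouse and class (at least 10 cells) and tested with edgeR 4.0.16 (TMM, filterByExpr, robust quasi-likelihood; R 4.3.3), with Benjamini-Hochberg adjustment within each class. Samples with few UMIs of a gene have wide counting error, which intervals and floors (3 UMIs) cover alone. Classes were compared within mice by exact two-sided sign-flip permutation, and strains by exact permutation over 1680 assignments. Alternatives were DESeq2 1.42.0, other filters, no low-count filter, a replicate block, clusters (scanpy 1.11.5), thinned gates, doublet removal, free RNA subtraction, and leaving out each mouse. In simulated counts with 200 genes changed 2-fold between NZB and NZW, 65 were recovered in mature B-like (4893 genes), 89 in pDC-like (6371), and 145 in classical monocyte-like cells (8607). The 10 genes, the pathway list, and the class pairs were chosen with earlier results of these data known. All 10 genes are named, and of the pathway list the 6 genes with the smallest adjusted p between NZB and NZW or between NZBWF1 and the parents' mean; *Rfx5* was added after its values were seen.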

Additional observations from a re-analysis of the deposited data

Results flagged for a closer look

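The difference of NZB and NZW (log2) was not the same in every class when the difference itself was tested, in class pairs that were chosen after the values were seen. Between pDC-like and classical monocyte-like cells, it differed by 1.81 for *Ciita* (edgeR adjusted p = 0.0133), 3.35 for *H2-Ab1* (0.00674), 3.03 for *H2-Aa* (0.0071), 3.65 for *H2-Eb1* (0.00683), and 2.65 for *Cd74* (0.0104), each more toward NZB in pDC-like cells. For *H2-DMb2* the fitted value was 6.70 (0.0116), and against mature B-like cells it was 6.55 (5.08e-05). Both depend on the prior count, since NZW pDC-like cells held 0 UMIs of this gene, and they are not sizes. For *H2-Ob*, the difference was 2.83 larger in dividing pre-B-like than in mature B-like cells (0.000192). The part of the markers that moved with the strains was not tested.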

How the results depend on the processing

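The 29 results past the threshold were refitted under up to 20 other settings, which gave 548 values. Of these, 445 stayed past the threshold, 103 did not, and 0 changed direction. Under every setting in which they were tested, 4 passed: *H2-DMb2* in pDC-like, *H2-DMb1* and *H2-Oa* in GMP-like cells (NZB against NZW), and *Ciita* in classical monocyte-like cells (NZBWF1 against NZB). Of these, *H2-DMb2* was tested under 17 settings only, against 19 for the other pDC-like results of NZB and NZW. Between NZB and NZW, 15 tests passed, against 23 with classes from clusters, 8 with gates on thinned cells, 7 with cells of at least 2000 UMIs and 1000 genes, 8 with at most 5% mitochondrial UMIs, and 12 to 17 when a mouse was left out. For NZBWF1 against its parents' mean, the count was 3, and it was 6 with no filter on low counts, 0 at 5% mitochondrial UMIs, and 0 to 6 without a mouse (0 without NZW replicate 1 or NZBWF1 replicate 3, and 6 without NZW replicate 2). For NZBWF1 against NZW it was 8, and 13 with no filter, 0 at 5%, and 5 to 11 without a mouse. For NZBWF1 against NZB it was 3, and 11 with clusters and 2 to 6 without a mouse. At 5% mitochondrial UMIs, pDC-like and plasma cell-like cells could not be fitted. These counts have no share of all genes beside them, and whether all genes gained or lost results alike was not tested.

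With the replicate number as a block, NZBWF1 differed from NZB in 7 tests in place of 3, the 4 added ones being *H2-Aa*, *H2-Ab1*, *H2-Eb1*, and *Cd74*, all higher in NZBWF1 cDC-like cells (edgeR adjusted p = 0.0131, 0.0051, 0.0218, and 0.00475). The labels do not say that a number marks a shared day or litter. Same-numbered mice deviated together (correlation above 0.1) in 7 of 9 pairs in neutrophil-like, 0 in classical monocyte-like, 2 in mature B-like, and 1 in pDC-like cells. The main fits hold no block, and whether the numbers pair the mice is not settled by these values. The median correlation of same-numbered mice was 0.589 in neutrophil-like cells and -0.242 for mice with other numbers, and 6 of 9 mice were closest to their own number. In pDC-like cells these were 0.0361, -0.0139, and 6 of 9. In classical monocyte-like and mature B-like cells 2 of 9 mice were closest to their own number, and in pro-B-like cells 3 of 9. The check was not made in cDC-like, GMP-like, or nonclassical monocyte-like cells. *H2-Eb1* in classical monocyte-like cells had an adjusted p of 0.0677 under the block (edgeR). Outside cDC-like cells, the block added *H2-Aa* in pDC-like cells against the parents' mean (0.61, edgeR adjusted p = 0.0157). Between NZB and NZW it added *H2-Aa* in small pre-B-like cells (0.99, 0.0497) and *H2-Eb1* in nonclassical monocyte-like cells (-2.17, 0.0292).

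The summed CPM of the 3 dimer genes was 6439 in cDC-like cells and 16030 (3 mice) with gates on thinned cells, 1548 and 3752 (7 mice) in macrophage-like cells, 1373 in nonclassical monocyte-like cells and 5608 with clusters, and 183 and 254 in plasma cell-like cells. For *Cd74* in classical monocyte-like cells, the exact permutation p over strains was 0.0179 at 2000 UMIs and 0.00714 without thinning (adjusted p = 0.149 and 0.0714), and the result was lost in both. Beyond these settings' own construction, the cause was not tested. Depth limited the low genes, and only 90 of 170 possible tests had enough UMIs to be made.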

Other observations

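Over the 17 classes, the genes outside the family whose mean log2(CPM + 1) was most like the mean of *H2-Aa*, *H2-Ab1*, *H2-Eb1*, and *Cd74*, amongst 6247 genes with at least 50 CPM in a class, were *Cd180* (Pearson r = 0.88), *Slamf9* (0.869), *Rubcnl* (0.861), *Lgmn* (0.86), and *Stat2* (0.831). *Cd180* encodes a receptor of B-cells related to the Toll-like receptors, and *Lgmn* a protease of the endosome. For the other genes of the family, r was 0.89 for *Ciita*, 0.749 for *H2-DMb1*, 0.693 for *H2-DMb2*, 0.556 for *H2-DMa*, 0.397 for *H2-Ob*, and 0.178 for *H2-Oa*. The points share their libraries, and the values are a description across classes. *Cd180* was at 185 CPM in pDC-like, 106 in mature B-like, and 1.29 in plasma cell-like cells.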
